A study of Mus musculus with 6 samples.

Results

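Integrins are the main receptors by which cells hold on to the matrix and to each other, and the genes described here are the 26 integrin subunits of the mouse with 11 proteins of the adhesions that form at their tails. They were chosen by name among the protein-coding genes: symbols that begin with Itga, the subunits Itgb1 to Itgb8, and Tln1, Tln2, Vcl, Pxn, Zyx, Ptk2, Ilk, Parva, Fermt1, Fermt2 and Fermt3. All 37 were among the 21718 genes counted, and 35 passed the filter on low counts and were tested. RNA came from 6 samples of whole prostate tumour, taken from castrated mice of a genetic prostate tumour model that had received donor marrow. The 3 F10-deleted samples had marrow from F10fl/fl; LysM-Cre+ donors, in which the Cre is made in myeloid cells. The 3 F10-intact samples had marrow from F10fl/fl donors without the Cre, so that donors of both kinds carried floxed alleles of F10, the gene of coagulation factor X. Recipients received 900 rad and the marrow at 6 weeks, were castrated at 8 weeks, and gave tumours 16 weeks later. The protocol names no floxed F10 in the recipients, so the F10 deletion is designed for marrow-derived cells. Each group holds samples numbered 1, 3 and 4, and the comparison asks how the tumour RNA differs when the marrow is designed to lose F10 in myeloid cells.

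An integrin is made of 1 alpha and 1 beta subunit, and the pairing sets what it binds. Talin and kindlin bind the beta tail and switch the receptor to its active state. Vinculin, paxillin, zyxin, the kinase FAK, and ILK with parvin then tie the receptor to actin and pass on signals. In the prostate, the basal layer sits on laminin through alpha-3, alpha-6 and beta-4 subunits, while the beta-2 integrins belong to leukocytes.

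F10 itself had 7, 4 and 9 counts in F10-deleted samples 1, 3 and 4, against 2, 6 and 17 counts in F10-intact samples 1, 3 and 4. These overlapping counts are too low to check the labels, and the recipients' own cells keep the gene by design. The depth was 9237308 to 11559980 counts in the F10-deleted samples and 10520465 to 11821588 counts in the F10-intact samples. The 37 genes took 0.240% to 0.267% of the counts in F10-deleted tumours and 0.179% to 0.243% in F10-intact tumours. Levels are CPM, counts divided by the library total and scaled with TMM factors. Single genes are ranked against each other per kilobase of exon, while sums over a list and shares of counts are not corrected for length. F10-intact sample 4 stood apart from the other 5 on the first principal component, which held 49.1% of the variance. There, 13 of the 37 members (35.1%) had their lowest value, as did 27.8% of all genes tested. The summed markers of prostate luminal epithelium were 3460 to 3653 CPM in F10-deleted tumours and 3491 to 4448 CPM in F10-intact tumours. Krt8, Krt18 and Epcam weighed most in that sum, with group means of 1137 to 1337 CPM. Of the 6 genes, 2 (33.3%, where 7.67% of all genes were) lay lower in every F10-deleted tumour. Pbsn averaged 12.9 CPM in F10-deleted and 48.6 CPM in F10-intact tumours, and Hoxb13 47.1 and 129.6 CPM. Their log2 fold changes were -1.91 and -1.46 (edgeR adjusted p = 0.233 and 0.253). Of the marker lists, skeletal muscle had the highest median difference, at sums of 1782, 725 and 1630 CPM in F10-deleted samples 1, 3 and 4, against 108, 19.9 and 12.6 CPM in F10-intact samples 1, 3 and 4.

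Of the 35 members tested, 0 rose and 0 fell in F10-deleted tumours at an adjusted p under 0.05 in edgeR's quasi-likelihood test, where 0.0439% of 15963 genes rose and 0% fell. DESeq2 also called 0 members, where it called 2.32% of genes higher and 0.861% lower. The lowest adjusted p of a member was 0.294 with edgeR and 0.0966 with DESeq2, for Itga6 with each tool. At an unadjusted p under 0.05, edgeR gave 6 members with higher values (17.1%, where 6.15% of all genes were higher), namely Itga6, Itga7, Itga5, Itga2, Itgav and Itga3, and 0 members with lower values, where 4.74% of all genes were lower. The 3 F10-deleted values all lay above the 3 F10-intact values for 6 members (17.1%, where 8.99% of genes did so), namely Itga2, Itga5, Itga6, Itga7, Itgav and Vcl. They all lay below for 1 member, Itgb3 (2.86%, where 7.67% of genes did so). Without F10-intact sample 4, 3 members had an unadjusted p under 0.05 with higher values (Itga2, Itga6 and Itga7, where 5.52% of genes did) and 1 with lower values (Itgb3, where 3.79% did). The same 6 higher and 0 lower members had an unadjusted p under 0.05 with DESeq2, where 6.47% of genes were higher and 4.81% lower, and with the sample number as a block, where 7.64% were higher and 6.76% lower. Leaving out F10-deleted sample 1, 3 or 4 gave 3, 2 and 3 higher members (where 6.85%, 4.53% and 4.96% of genes were higher) and 1, 0 and 0 lower members (where 4.76%, 1.95% and 3.31% were lower). Leaving out F10-intact sample 1 or 3 gave 5 and 3 higher members (7.28% and 5.19% of genes) and 1 and 0 lower members (5.85% and 4.38% of genes). Members whose groups did not overlap then numbered 6 to 11 higher, where 11.5% to 15.1% of genes were, and 1 to 4 lower, where 9.82% to 16.1% were. Without F10-intact sample 4 they were 6 higher (12.6% of genes) and 2 lower (12.4% of genes). Within the 3 same-numbered pairs, 10 members were higher in the F10-deleted sample every time (28.6%, where 20.0% of genes were), namely the 6 non-overlapping ones with Itga3, Itgb1, Itgb4 and Itgb8. Itga2b, Itgb3, Itgb5 and Itgb7 were lower every time (4 members or 11.4%, where 21.2% of genes were). The median log2 fold change was 0.07 over the 35 members and -0.02 over all genes tested.

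**Figure D1:**
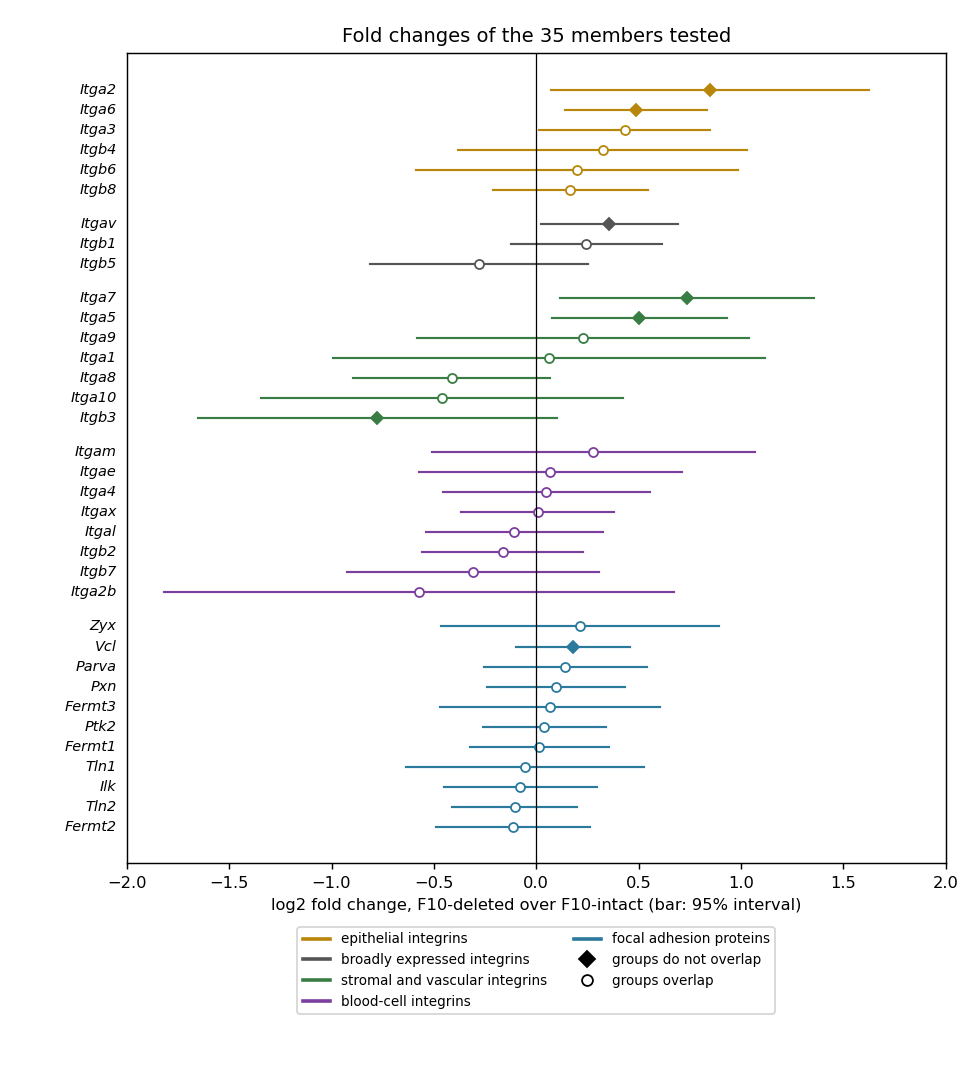
Log2 fold change of each tested member, F10-deleted over F10-intact, from the edgeR fit, with its 95% interval, grouped by class. Filled diamonds mark the 7 genes whose 3 F10-deleted and 3 F10-intact values do not overlap. All 6 epithelial integrins lie to the right of 0, while the 8 blood-cell integrins tested lie on either side of it.

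Beta-1, the partner of most alpha subunits, was the most abundant of the 37 genes per kilobase. Itgb1 (ENSMUSG00000025809, chromosome 8, 128685654 to 128733200, plus strand, GRCm38) averaged 101 ± 4.22 CPM per kilobase in F10-deleted tumours and 84.9 ± 14.6 CPM per kilobase in F10-intact tumours (SD, n = 3 each). Its level was 391, 418 and 423 CPM in F10-deleted samples 1, 3 and 4, against 346, 406 and 287 CPM in F10-intact samples 1, 3 and 4. These groups overlapped, with F10-intact sample 4 the lowest, and the log2 ratio was 0.24 (SE 0.16, adjusted p = 0.642 by edgeR). Ilk, which encodes the integrin-linked kinase, came next at 41.0 ± 4.77 CPM per kilobase in F10-deleted tumours and 43.3 ± 7.10 CPM per kilobase in F10-intact tumours. After it stood Itgb5, Vcl, Parva, Tln1, Fermt1, Itga6 and Itga3, at 15.1 to 20.0 CPM per kilobase over the 6 tumours, and neighbours in that order did not differ beyond their spread. Itga11 and Itgad closed the order at 0.161 and 0.129 CPM per kilobase.

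**Figure D2:**
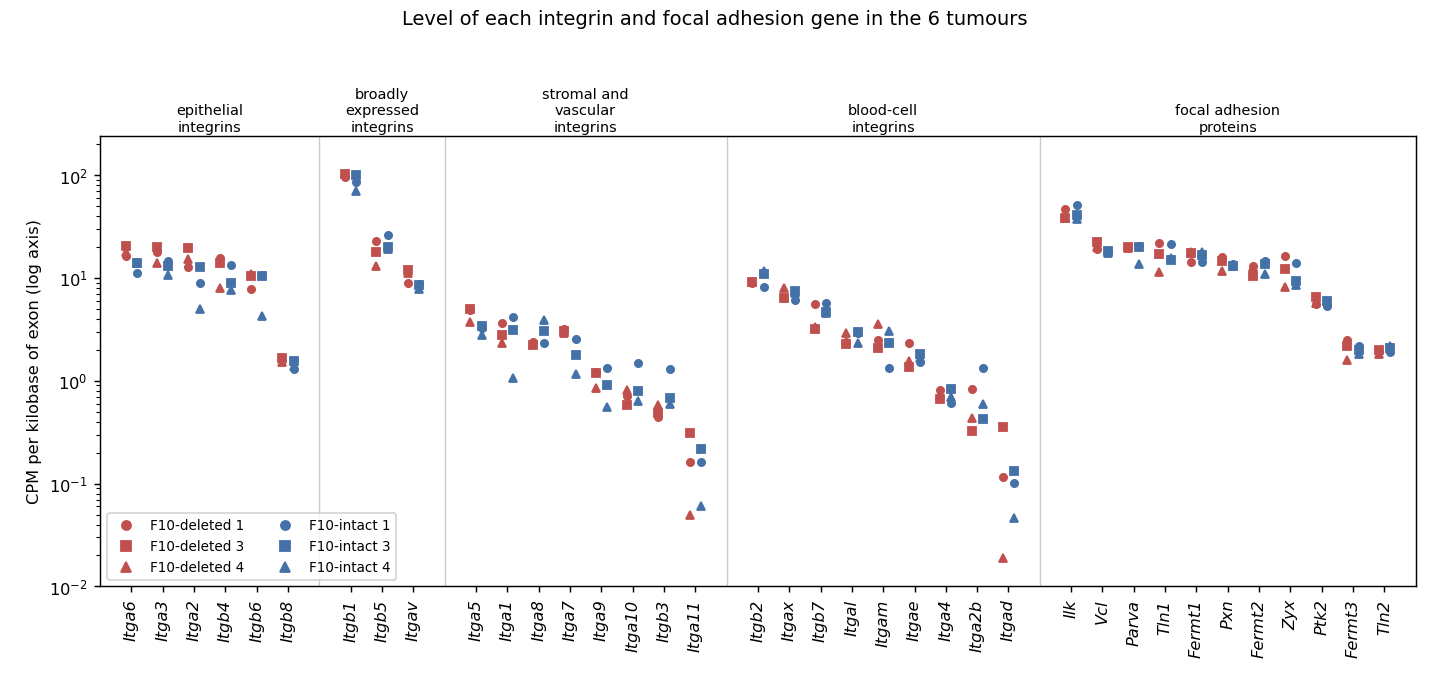
Level of each of the 37 genes in the 6 tumours, in CPM per kilobase of exon on a log axis, with F10-deleted samples in red to the left of F10-intact samples in blue, and marker shapes for the sample numbers. Genes are ordered within each class by their mean. Itgb1 is the highest point cloud and Itgad the lowest, and among epithelial integrins F10-intact sample 4 is the lowest for Itga2, Itga3, Itgb4 and Itgb6.

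The epithelial integrins were the class with the highest fold changes. All 6 were above 0 (100%, where 47.3% of genes tested were), their median log2 fold change was 0.38, and 0 passed the test over all genes. Itga6, the alpha-6 laminin receptor chain (ENSMUSG00000027111, chromosome 2, 71745616 to 71858416, plus strand), stood at 146, 183 and 163 CPM in F10-deleted samples 1, 3 and 4, against 100, 126 and 125 CPM in F10-intact samples 1, 3 and 4. Every F10-deleted tumour was above every F10-intact tumour, at a log2 ratio of 0.49 (SE 0.15, adjusted p = 0.294 by edgeR). Itga2, the alpha-2 chain of a collagen receptor (ENSMUSG00000015533, chromosome 13, 114833081 to 114932100, minus strand), stood at 91.3, 140 and 110 CPM in F10-deleted samples 1, 3 and 4, against 63.1, 91.1 and 35.5 CPM in F10-intact samples 1, 3 and 4. The gap between the groups was narrow, 91.3 CPM in F10-deleted sample 1 against 91.1 CPM in F10-intact sample 3, and the log2 ratio was 0.85 (SE 0.33, adjusted p = 0.414 by edgeR), or 0.56 without F10-intact sample 4. Itga3, the alpha-3 laminin receptor chain (ENSMUSG00000001507, chromosome 11, 95044474 to 95076801, minus strand), stood at 103, 114 and 80.1 CPM in F10-deleted samples 1, 3 and 4, against 84.4, 74.0 and 61.5 CPM in F10-intact samples 1, 3 and 4. Here F10-deleted sample 4 lay below F10-intact sample 1, and the log2 ratio was 0.43 (SE 0.18, adjusted p = 0.440 by edgeR).

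The beta chains of the epithelial class showed smaller differences. Itgb4, the hemidesmosome subunit that pairs with alpha-6 alone, averaged 87.7 ± 28.2 CPM in F10-deleted tumours and 70.0 ± 21.6 CPM in F10-intact tumours (SD, n = 3 each), with overlapping groups. The per-kilobase ratio of Itga6 over Itgb4 was 1.05, 1.44 and 2.27 in F10-deleted samples 1, 3 and 4, against 0.824, 1.58 and 1.82 in F10-intact samples 1, 3 and 4. In each group sample 1 had the lowest and sample 4 the highest ratio, and the groups overlapped. Itgb6 and Itgb8, which with alpha-v bind latent TGF-beta, had log2 fold changes of 0.20 ± 0.34 and 0.17 ± 0.16 (SE, edgeR adjusted p = 0.888 and 0.774). Itgb6 ranged from 55.1 to 77.5 CPM in F10-deleted tumours, and in F10-intact tumours it was at 75.7 and 73.6 CPM in samples 1 and 3 but at 30.5 CPM in sample 4.

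Basal epithelium markers moved with this class. Their sum was 2758, 3639 and 2182 CPM in F10-deleted samples 1, 3 and 4, against 1943, 1282 and 799 CPM in F10-intact samples 1, 3 and 4, and all 5 (Krt5, Krt14, Krt15, Trp63 and Col17a1) were above 0 at a median log2 difference of 0.87. The 6 epithelial integrins summed to 522, 629 and 503 CPM in F10-deleted samples 1, 3 and 4, against 432, 444 and 321 CPM in F10-intact samples 1, 3 and 4. Sample 3 was highest and sample 4 lowest for both sums in F10-deleted tumours, whereas in F10-intact tumours sample 3 was highest for the integrins and sample 1 for the basal markers. In such bulk samples, a difference in the number of cells of a type and one in RNA per cell cannot be told apart. Urothelial markers summed to 325, 1523 and 355 CPM in F10-deleted samples 1, 3 and 4, against 384, 424 and 150 CPM in F10-intact samples 1, 3 and 4. The part of basal and urothelial cells in the integrin values was not tested.

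**Figure D3:**
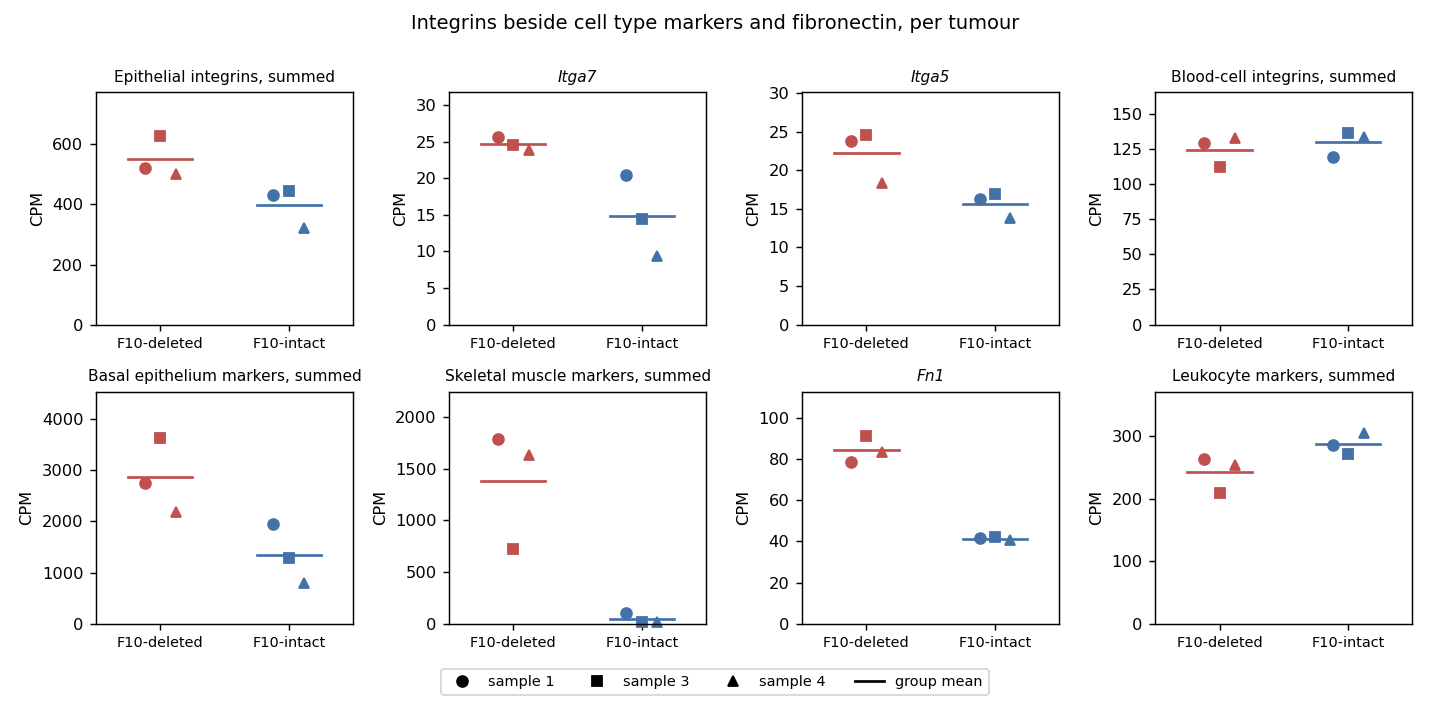
Summed or single levels in CPM (linear axes from 0) for the 3 F10-deleted and 3 F10-intact tumours, with a bar at each group's mean. The epithelial integrins stand above the basal markers, Itga7 above the skeletal muscle markers, Itga5 above Fn1, and the blood-cell integrins above the leukocyte markers. The groups separate in the first 3 columns. In the last column the leukocyte markers separate by a narrow gap and the blood-cell integrins overlap.

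Among the broadly expressed chains, Itgav and Itgb5, which form a vitronectin receptor together, had fold changes of opposite sign. Itgav (ENSMUSG00000027087, chromosome 2, 83724397 to 83806916, plus strand) stood at 96.0, 128 and 119 CPM in F10-deleted samples 1, 3 and 4, against 93.5, 91.0 and 83.4 CPM in F10-intact samples 1, 3 and 4. The groups did not overlap, although F10-deleted sample 1 was close to F10-intact sample 1, and the log2 ratio was 0.36 (SE 0.14, adjusted p = 0.428 by edgeR). Itgb5 stood at 82.0, 64.0 and 46.2 CPM in F10-deleted samples 1, 3 and 4, against 93.9, 71.2 and 67.9 CPM in F10-intact samples 1, 3 and 4, with overlapping groups and a log2 ratio of -0.28 (SE 0.23, adjusted p = 0.724 by edgeR). The per-kilobase ratio of Itgav over Itgb5 was 0.387, 0.661 and 0.852 in F10-deleted samples 1, 3 and 4, against 0.329, 0.423 and 0.406 in F10-intact samples 1, 3 and 4, and these overlapped as well, although the ratio was higher in F10-deleted tumours within each same-numbered pair.

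Stromal and vascular integrins did not share a direction: 4 of the 7 tested were above 0 (57.1%) at a median log2 difference of 0.06, and 0 passed the test. That median was 0.409 when F10-intact sample 1 and -0.166 when F10-intact sample 4 was left out. Itga7, the laminin receptor chain of skeletal, cardiac and smooth muscle (ENSMUSG00000025348, chromosome 10, 128933818 to 128958282, plus strand), stood at 25.6, 24.5 and 23.8 CPM in F10-deleted samples 1, 3 and 4, against 20.4, 14.5 and 9.43 CPM in F10-intact samples 1, 3 and 4. All F10-deleted tumours were higher, at a log2 ratio of 0.74 (SE 0.27, adjusted p = 0.368 by edgeR), or 0.50 when F10-intact sample 4 and 1.07 when F10-intact sample 1 was left out. All 8 skeletal muscle markers (100%, where 8.99% of all genes did so) also lay higher in every F10-deleted tumour. Their median log2 fold change was 4.76, and 0 of the 8 passed the test (edgeR adjusted p from 0.0846 to 0.292). Smooth muscle markers summed to 2431, 2361 and 1255 CPM in F10-deleted samples 1, 3 and 4, against 3225, 2066 and 878 CPM in F10-intact samples 1, 3 and 4. The part of muscle RNA in the Itga7 values was not tested.

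Itga5, the alpha chain of the main fibronectin receptor (ENSMUSG00000000555, chromosome 15, 103344286 to 103366763, minus strand), stood at 23.8, 24.5 and 18.3 CPM in F10-deleted samples 1, 3 and 4, against 16.2, 17.0 and 13.8 CPM in F10-intact samples 1, 3 and 4. The groups did not overlap, and the log2 ratio was 0.50 (SE 0.19, adjusted p = 0.373 by edgeR). Endothelial markers, from cells that carry Itga5, summed to 69.9, 66.1 and 53.1 CPM in F10-deleted samples 1, 3 and 4, against 51.1, 39.2 and 30.5 CPM in F10-intact samples 1, 3 and 4, and their part in the Itga5 values was not tested. Fibroblast markers summed to 1308, 1208 and 1303 CPM in F10-deleted samples 1, 3 and 4, against 1451, 1223 and 1401 CPM in F10-intact samples 1, 3 and 4. Of the 6 genes, 0 had groups that did not overlap, where 16.7% of all genes did not in either direction. With so few genes, a count of 0 is near that background.

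Itgb3, the beta chain of the platelet fibrinogen receptor and of a vitronectin receptor (ENSMUSG00000020689, chromosome 11, 104608000 to 104670476, plus strand), was the member with lower values in every F10-deleted tumour. It stood at 2.63, 2.88 and 3.41 CPM in F10-deleted samples 1, 3 and 4, against 7.75, 4.03 and 3.53 CPM in F10-intact samples 1, 3 and 4, or 25 to 40 counts in F10-deleted samples and 34 to 84 counts in F10-intact samples. The gap between the groups was narrow, 3.41 CPM in F10-deleted sample 4 against 3.53 CPM in F10-intact sample 4. These samples had 40 and 34 counts, so their order rests on the scaling. The log2 ratio was -0.78 (SE 0.38, adjusted p = 0.516 by edgeR), which shrank to -0.31 once F10-intact sample 1 was left out, the highest of the 6. Its platelet partner Itga2b, 2137877 bases away on the same chromosome, was also highest in that tumour, at 4.52, 1.78 and 2.39 CPM in F10-deleted samples 1, 3 and 4, against 7.29, 2.31 and 3.21 CPM in F10-intact samples 1, 3 and 4. The Itga2b groups overlapped, and its log2 ratio of -0.57 (SE 0.54, adjusted p = 0.761 by edgeR) became 0.09 without F10-intact sample 1. The platelet genes Pf4 and Ppbp summed to 6.83, 3.81 and 21.2 CPM in F10-deleted samples 1, 3 and 4, against 13.2, 5.23 and 10.7 CPM in F10-intact samples 1, 3 and 4, so their highest value was in another tumour.

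Itga8, a mesenchymal receptor chain for nephronectin, stood at 17.6, 16.5 and 16.9 CPM in F10-deleted samples 1, 3 and 4, against 17.3, 22.3 and 28.4 CPM in F10-intact samples 1, 3 and 4. Only F10-intact sample 1 fell within the F10-deleted range, and the log2 ratio was -0.41 (SE 0.21, adjusted p = 0.532 by edgeR). Itga1, a collagen receptor chain and the direct neighbour of Itga2 on chromosome 13 at a distance of 20995 bases, stood at 67.4, 51.7 and 43.1 CPM in F10-deleted samples 1, 3 and 4, against 77.1, 58.1 and 19.9 CPM in F10-intact samples 1, 3 and 4. Its log2 ratio of 0.06 (SE 0.45, adjusted p = 0.979 by edgeR) was -0.33 without F10-intact sample 4. Itga9 and Itga10 ranged from 3.05 to 10.2 CPM over the 6 tumours with overlapping groups. Itga11, a collagen receptor chain of fibroblasts, was below the filter, with 3 to 19 counts in F10-deleted samples and 3 to 13 counts in F10-intact samples.

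Blood-cell integrins, the class closest to the cells that the marrow supplied, had groups that overlapped for every gene tested. Of the 8 tested, 4 had fold changes above 0 and 4 below (47.3% of all genes were above 0), at a median log2 difference of -0.05, and 0 had groups that did not overlap (16.7% of all genes did not in either direction). A count of 0 of 8 is near that background. Itgb2, the beta chain shared by the leukocyte integrins (ENSMUSG00000000290, chromosome 10, 77530252 to 77565708, plus strand), stood at 27.1, 28.2 and 27.9 CPM in F10-deleted samples 1, 3 and 4, against 24.6, 33.2 and 35.4 CPM in F10-intact samples 1, 3 and 4. The F10-deleted values were close together and lay within the F10-intact range, and the log2 fold change was -0.16 (95% interval -0.56 to 0.23, edgeR adjusted p = 0.791). Itgax, the alpha-X chain of dendritic cells and macrophages, stood at 30.8, 30.5 and 38.6 CPM in F10-deleted samples 1, 3 and 4, against 29.4, 36.2 and 33.9 CPM in F10-intact samples 1, 3 and 4, at a log2 fold change of 0.01 (95% interval -0.37 to 0.38, edgeR adjusted p = 0.995). Itgb7, which pairs with alpha-4 and alpha-E on lymphocytes, stood at 15.4, 8.88 and 9.21 CPM in F10-deleted samples 1, 3 and 4, against 15.7, 12.9 and 12.8 CPM in F10-intact samples 1, 3 and 4, at a log2 fold change of -0.31 (95% interval -0.92 to 0.31, edgeR adjusted p = 0.741).

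Itgal, Itgam, Itgae and Itga4 lay between 6.17 and 19.4 CPM in the 6 tumours, and Itgad at 1.61 CPM or less. Itgal and Itgam, which with beta-2 make receptors of lymphocytes and of myeloid cells, had log2 fold changes of -0.11 and 0.28, with 95% intervals of -0.54 to 0.33 and -0.51 to 1.07. The per-kilobase ratio of Itgal over Itgam was 0.964, 1.08 and 0.819 in F10-deleted samples 1, 3 and 4, against 2.17, 1.25 and 0.765 in F10-intact samples 1, 3 and 4. F10-intact sample 1 had the most Itgal for its Itgam, and the groups overlapped. Itgae, found on T cells within epithelia, and Itga4, a receptor chain for VCAM-1, differed by less than their spread, at log2 fold changes of 0.07 ± 0.28 and 0.05 ± 0.22 (SE). Itgad had 1 to 19 counts in F10-deleted samples and 2 to 7 counts in F10-intact samples, and was not tested.

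Leukocyte markers had sums that did not overlap, by a narrow gap, while those of the blood-cell integrins overlapped. The gap was 263 CPM in F10-deleted sample 1 against 271 CPM in F10-intact sample 3. Whether it holds under other scalings was not tested. The sum of Ptprc, Cd53, Laptm5, Coro1a and Cd52 was 263, 208 and 254 CPM in F10-deleted samples 1, 3 and 4, against 285, 271 and 304 CPM in F10-intact samples 1, 3 and 4, so the sum was lower in every F10-deleted tumour, although the groups overlapped for each of the 5 genes taken alone. The part of these cells in the integrin values was not tested. Neutrophil markers summed to 90.0, 121 and 115 CPM in F10-deleted samples 1, 3 and 4, against 113, 174 and 239 CPM in F10-intact samples 1, 3 and 4. Macrophage and monocyte markers summed to 856, 712 and 767 CPM in F10-deleted samples 1, 3 and 4, against 690, 670 and 920 CPM in F10-intact samples 1, 3 and 4. Lyz2 weighed most in that sum, with means of 247 CPM in F10-deleted and 187 CPM in F10-intact tumours. Of these 10 markers, 3 were above 0 (30%, where 47.3% of all genes were) and 7 below, at a median log2 fold change of -0.16. Blood-cell integrins took 9.39%, 7.55% and 9.89% of all integrin counts in F10-deleted samples 1, 3 and 4, against 9.57%, 10.7% and 13.7% in F10-intact samples 1, 3 and 4. Epithelial integrins took 38.1%, 42.4% and 37.5% in F10-deleted samples 1, 3 and 4, against 34.8%, 34.8% and 32.9% in F10-intact samples 1, 3 and 4, so that the epithelial share was higher in each F10-deleted tumour. The blood-cell share overlapped between the groups but was lower in F10-deleted tumours within each same-numbered pair. Shares of a total depend on each other, so a higher share of 1 class lowers the rest. The summed level of blood-cell integrins was 128.8, 112.1 and 132.5 CPM in F10-deleted samples 1, 3 and 4. In F10-intact samples 1, 3 and 4 it was 118.9, 136.3 and 133.2 CPM, so F10-deleted sample 1 was the higher of its pair. The log2 ratio of the mean sums was -0.06.

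**Figure D4:**
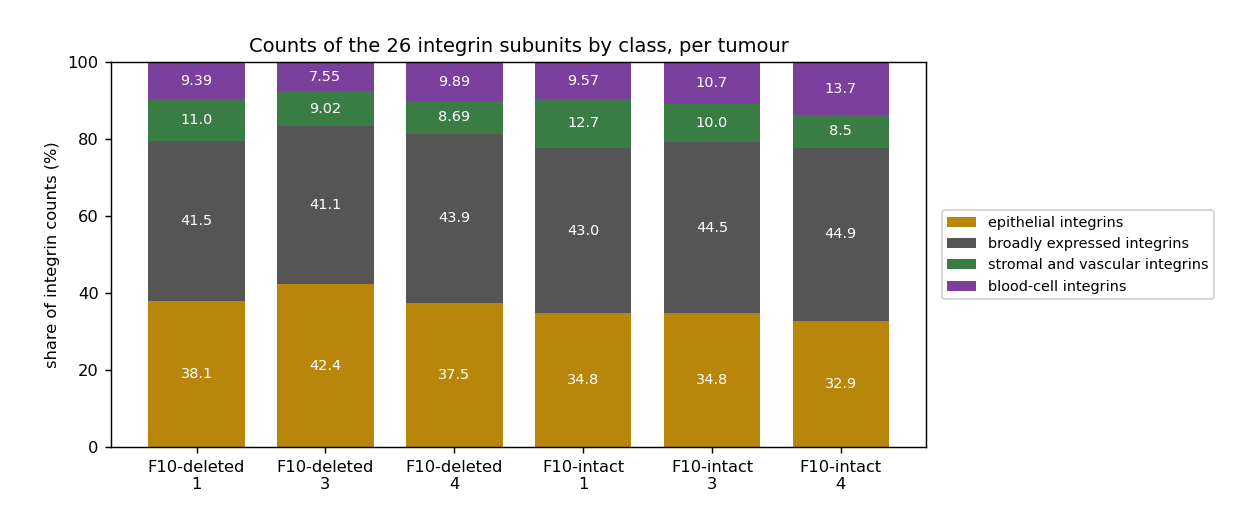
Share of all integrin counts, in percent, taken by each class in the 3 F10-deleted tumours (left) and the 3 F10-intact tumours (right). Epithelial integrins take 37.5% to 42.4% in F10-deleted tumours and 32.9% to 34.8% in F10-intact tumours, while the blood-cell share overlaps and is highest, at 13.7%, in F10-intact sample 4.

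The starts of 5 genes are shown because they stand for both outcomes: Itga2, Itga5 and Itgav had groups that did not overlap, and Itgam and Itgax, neighbours at a distance of 11055 bases in the leukocyte cluster of chromosome 7, had groups that did. These genes were chosen after their values were seen. Each line is the RefSeq promoter window on GRCm38.p6, from 250 bases before to 50 bases after the start site, read 5′ to 3′ on the gene's strand, and capitals mark exact matches on either strand to the AP-1 motif TGACTCA, the GC box GGGCGG or the PU.1 core GAGGAA.
Itga2: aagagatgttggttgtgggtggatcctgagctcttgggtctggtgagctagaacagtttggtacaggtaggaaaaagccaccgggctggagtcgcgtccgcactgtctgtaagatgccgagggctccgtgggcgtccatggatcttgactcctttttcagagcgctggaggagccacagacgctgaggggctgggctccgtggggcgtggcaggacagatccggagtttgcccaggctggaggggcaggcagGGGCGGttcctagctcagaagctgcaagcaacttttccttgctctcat
Itga5: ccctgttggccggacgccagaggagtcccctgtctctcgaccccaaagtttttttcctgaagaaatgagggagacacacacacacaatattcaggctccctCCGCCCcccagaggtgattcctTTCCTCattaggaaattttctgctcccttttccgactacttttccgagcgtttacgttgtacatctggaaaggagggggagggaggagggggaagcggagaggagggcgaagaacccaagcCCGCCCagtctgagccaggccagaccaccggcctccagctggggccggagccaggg
Itgav: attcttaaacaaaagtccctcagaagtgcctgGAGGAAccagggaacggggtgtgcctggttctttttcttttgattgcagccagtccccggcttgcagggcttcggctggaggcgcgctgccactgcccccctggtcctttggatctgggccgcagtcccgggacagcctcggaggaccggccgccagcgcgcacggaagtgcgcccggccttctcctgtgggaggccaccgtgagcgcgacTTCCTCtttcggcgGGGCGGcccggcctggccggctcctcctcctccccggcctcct
Itgam: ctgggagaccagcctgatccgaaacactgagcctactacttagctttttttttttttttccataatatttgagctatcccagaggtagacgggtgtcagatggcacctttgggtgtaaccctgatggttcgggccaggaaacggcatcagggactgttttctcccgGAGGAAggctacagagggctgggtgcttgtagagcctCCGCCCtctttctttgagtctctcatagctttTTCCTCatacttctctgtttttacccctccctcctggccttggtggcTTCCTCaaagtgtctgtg
Itgax: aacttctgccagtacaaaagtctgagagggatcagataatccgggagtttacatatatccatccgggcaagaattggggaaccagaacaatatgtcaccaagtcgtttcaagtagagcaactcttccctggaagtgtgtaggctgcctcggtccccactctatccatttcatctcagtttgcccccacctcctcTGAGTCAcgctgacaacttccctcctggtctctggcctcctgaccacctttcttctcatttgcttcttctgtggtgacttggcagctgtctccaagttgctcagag

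The windows lie at chr13:114932051-114932350 (minus strand) for Itga2, chr15:103366742-103367041 (minus) for Itga5, chr2:83724147-83724446 (plus) for Itgav, chr7:128062390-128062689 (plus) for Itgam and chr7:128129300-128129599 (plus) for Itgax. A match is a description of these letters and not a bound site, and no base of the 5 windows lay in more than 1 match. Itgam held 3 PU.1 cores and 1 GC box, Itgax 1 AP-1 motif, Itga2 1 GC box, Itga5 2 GC boxes and 1 PU.1 core, and Itgav 1 GC box and 2 PU.1 cores. Of 32851 promoter windows, 28.3% held the PU.1 core, 35.7% the GC box and 5.2% the AP-1 motif. Windows were matched for 25 of the 37 members, 28 in all, and the PU.1 core was in 3 of 5 windows of blood-cell integrins, in 2 of 3 of broadly expressed integrins, in 2 of 6 each of epithelial and of stromal and vascular integrins, and in 1 of 8 of focal adhesion proteins.

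The adhesion proteins inside the cell differed less than the integrins. Of 11 tested, 7 were above 0 (63.6%) at a median log2 difference of 0.04 and a range of -0.11 to 0.21, and 0 passed the test. Vcl, or vinculin, the actin linker that binds talin under load (ENSMUSG00000021823, chromosome 14, 20929398 to 21033676, plus strand), stood at 158, 183 and 163 CPM in F10-deleted samples 1, 3 and 4, against 151, 151 and 142 CPM in F10-intact samples 1, 3 and 4. These groups did not overlap, but the log2 ratio was 0.18 (SE 0.12, adjusted p = 0.649 by edgeR). Parva, the parvin that binds ILK, stood at 203, 202 and 199 CPM in F10-deleted samples 1, 3 and 4, against 206, 203 and 138 CPM in F10-intact samples 1, 3 and 4, so that 5 tumours were alike and F10-intact sample 4 was lower. Ilk stood at 128, 106 and 104 CPM in F10-deleted samples 1, 3 and 4, against 141, 112 and 103 CPM in F10-intact samples 1, 3 and 4, with a log2 ratio of -0.08 (SE 0.16, adjusted p = 0.910 by edgeR).

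The talins and kindlins gave no difference beyond the spread between samples. Tln2, the talin of muscle and brain, stood at 36.0, 36.9 and 33.3 CPM in F10-deleted samples 1, 3 and 4, against 35.3, 38.6 and 40.4 CPM in F10-intact samples 1, 3 and 4, and had the narrowest range of the 37 genes, with its highest value 1.21 times its lowest. Tln1, the talin of most cells, averaged 164 ± 50.2 CPM in F10-deleted tumours and 171 ± 33.9 CPM in F10-intact tumours (SD, n = 3 each). Among the kindlins, Fermt1, of epithelia, averaged 93.8 ± 11.5 CPM in F10-deleted tumours and 92.8 ± 9.67 CPM in F10-intact tumours. Fermt2 averaged 62.4 ± 7.54 CPM in F10-deleted and 67.5 ± 9.98 CPM in F10-intact tumours. Fermt3, of blood cells, averaged 12.1 ± 2.73 CPM in F10-deleted and 11.5 ± 1.04 CPM in F10-intact tumours (SD, n = 3 each for the kindlins). Zyx, Pxn and Ptk2, which encode zyxin, paxillin and FAK, had log2 fold changes of 0.21 ± 0.29, 0.10 ± 0.15 and 0.04 ± 0.13 (SE, edgeR adjusted p from 0.852 to 0.945).

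Of the matrix genes whose proteins bind integrins, 0 of 26 passed the test, but most had higher values in F10-deleted tumours. Of the 26, 21 were above 0, the median log2 fold change was 0.61 (0.605 before rounding, against -0.02 over all genes tested), and 14 (53.8%, where 8.99% of all genes did so) lay higher in every F10-deleted tumour. The list was chosen with earlier results of these data known, so this share is a description and not a test. Fn1, fibronectin, the ligand of alpha-5 beta-1, stood at 78.3, 91.4 and 83.4 CPM in F10-deleted samples 1, 3 and 4, against 41.4, 42.0 and 40.6 CPM in F10-intact samples 1, 3 and 4 (log2 ratio 1.03, SE 0.12, edgeR adjusted p = 0.0758). Tnc, the matrix protein tenascin-C, stood at 70.0, 79.9 and 85.3 CPM in F10-deleted samples 1, 3 and 4, against 42.5, 32.7 and 34.4 CPM in F10-intact samples 1, 3 and 4 (log2 ratio 1.10, SE 0.16, edgeR adjusted p = 0.0846). For both genes every F10-deleted tumour was above every F10-intact tumour, and Col1a2, a collagen I chain, was at a log2 ratio of 0.89 (SE 0.13, adjusted p = 0.0846 by edgeR). Among laminin chains, Lama3 and Lamb3 had log2 fold changes of 0.91 and 0.47, while Lama2, Lama4 and Lama5 lay at -0.00478, -0.06 and -0.10. Lamb1 and Lamc1 lay at 0.38 and 0.34, and Lamb2 at -0.17. Lama3 and Lamb1 were higher in every F10-deleted tumour, while the groups overlapped for Lamb3 and the other chains named here. The edgeR adjusted p was 0.138 for Lama3 and 0.593 or higher for the others. These laminin chains were chosen after their values were seen.

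**Figure D5:**
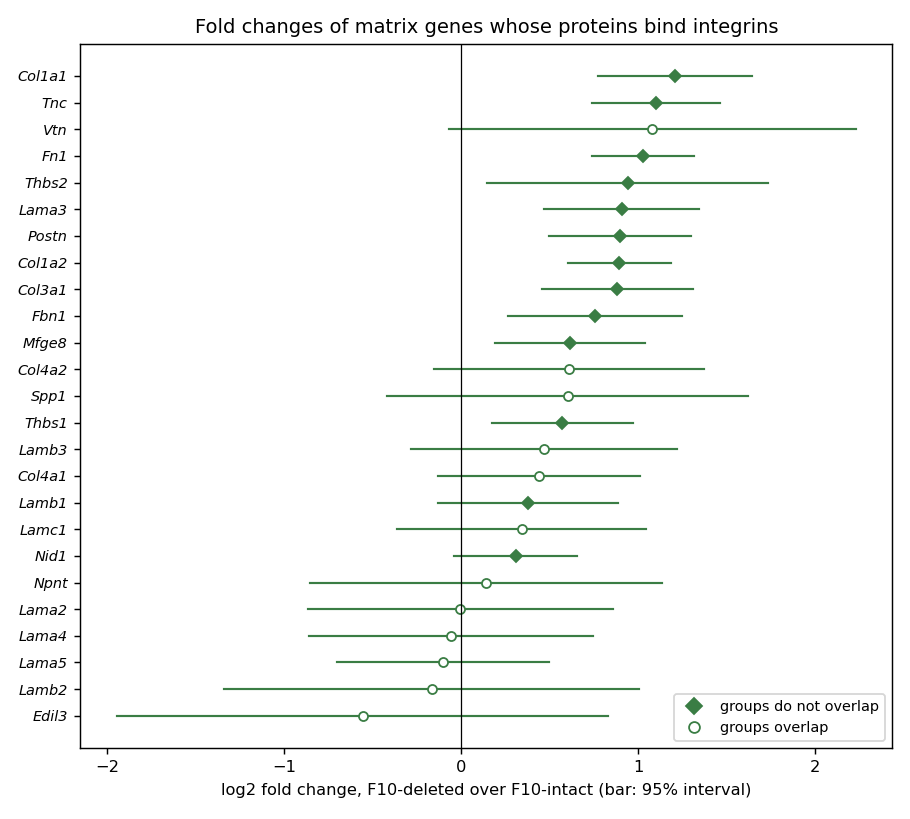
Log2 fold change of 25 of the 26 matrix genes, F10-deleted over F10-intact, from the edgeR fit, with 95% intervals. Filled diamonds mark the 13 of these whose groups do not overlap, with Col1a1, Tnc and Fn1 among the highest and Edil3 the lowest.

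Cell-surface ligands and the other adhesion genes gave 0 calls. Vcam1, the ligand of alpha-4 integrins on endothelium, stood at 20.2, 25.1 and 27.9 CPM in F10-deleted samples 1, 3 and 4, against 15.6, 16.7 and 12.2 CPM in F10-intact samples 1, 3 and 4, with no overlap and a log2 ratio of 0.72 (SE 0.20, adjusted p = 0.248 by edgeR). Icam1, the ligand of beta-2 integrins, and Cdh1, the ligand of alpha-E beta-7, had log2 fold changes of 0.29 ± 0.13 and 0.29 ± 0.18 (SE, edgeR adjusted p = 0.469 and 0.626). Among 25 adaptors and actin linkers, 15 were above 0, with Vasp, an actin elongation factor, at 0.28, Parvb, a parvin, at 0.67 and Lims1, the PINCH partner of ILK, at 0.28. Among 21 kinases and signalling genes, 16 were above 0, with Dock1, a Rac activator, at 0.52, Nedd9, a FAK-binding scaffold, at 0.32 and Ptk2b, the kinase PYK2, at 0.35. Among 17 regulators of integrin activation, 6 were above 0, with Sharpin, an inhibitor of activation, at -0.31, Rap1b, the GTPase that recruits talin, at 0.17 and Apbb1ip, its effector RIAM, at -0.32 on the log2 scale. Over these last 3 lists the edgeR adjusted p was 0.437 or higher, and 3 genes (Vasp, Parvb and Dock1) lay higher and 2 (Enah and Sharpin) lower in every F10-deleted tumour. These shares of the 3 lists are below the 8.99% of all genes that were higher and the 7.67% that were lower.

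Some counts cannot be assigned with certainty, since the strand setting of the counting is not given in the sources used here. Annotated exons overlap another gene for 14 of the 37 members. Taf10 lies opposite 76.7% of the exon bases of Ilk and Ap3m1 opposite 25.5% of those of Vcl, while gene models on the same strand share 68.7% of those of Itgam and 33.5% of those of Itga10.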

How the data were processed

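Per the labels' protocols, poly-A RNA of 6 tumour samples was made into directional libraries and read single-ended. The authors deposited raw read counts per Ensembl gene; per the submitters' processing notes, STAR 2.7.10a and the build GRCm38 were used, and DESeq2 is named there with no role. Which program, strand setting and annotation produced the counts is not given in the sources used here. GENCODE M21 gave symbols for 21605 of 21718 identifiers, and exon lengths and coordinates. The edgeR quasi-likelihood test (edgeR 4.0.16, R 4.3.3, robust, TMM factors, filterByExpr with a minimum count of 10) compared F10-deleted with F10-intact over 15963 genes, with Benjamini-Hochberg adjustment at 0.05; it was tested on simulated data. DESeq2 1.42.0, limma-voom (limma 3.58.1), other scalings and filters, a replicate block and leaving out each sample were the alternatives. Intervals are 95%, and counting precision is limited by 9237308 to 11821588 counts per sample.

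No label ties the samples to separate animals, and the p-values reflect only how far these samples spread, which may be technical. The main fit did not pair the samples, and the sample number entered only the replicate block. Same-numbered pairs are otherwise given as a description. The deviations of same-numbered samples correlated at 0.35, 0.135 and 0.181 for numbers 1, 3 and 4, and those of differently numbered samples at -0.247 to 0.0682. Each same-numbered correlation was above all of the differently numbered ones. All of them are weak, and whether the numbers mark true pairs was not tested. Samples of a group differed beyond sampling noise (chi-square per degree of freedom 22.3 to 77.5). Values in all 6 samples are given for the 3 members of each class with the smallest p and the 3 with the highest level per kilobase; others are given in ranges, or were chosen for their role. From each pathway list the 3 genes with the smallest p are named. The members, classes, lists and promoter motifs were chosen with earlier results of these data known. The classes follow textbook roles, and many integrins are made by several cell types. Of the marker and ligand genes listed, Madcam1 and 4 platelet genes (Gp1ba, Gp1bb, Gp6 and Gp9) were not analysed here. The recipients' tumour genotype and the values of 1 matrix gene, which is counted in its list, are not reported here.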

Additional observations from a re-analysis of the deposited data

How the results depend on the processing

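Under the 14 other fits at an adjusted p under 0.05, and with edgeR at an adjusted p under 0.1, the count of members called stayed at 0. Over all genes the 7 higher calls became 2 without the 50 most abundant genes, 2 with limma-voom, 2 with the filter of 1 CPM in 3 samples, 1 with the replicate block, 355 with DESeq2 and 84 at an adjusted p under 0.1, and 0 to 56 with 1 sample left out. The 0 lower calls became 1 with the replicate block, 132 with DESeq2 and 1 at an adjusted p under 0.1, and 0 to 16 with 1 sample left out. With 1 sample left out, the median log2 fold change lay between -0.166 and 0.409 for stromal and vascular integrins, where the value without F10-intact sample 1 was 0.409, between 0.24 and 0.528 for epithelial integrins, between -0.142 and 0.0472 for blood-cell integrins, and between -0.0292 and 0.15 for focal adhesion proteins. As an alternative added after seeing the data, leaving out 1 sample gave 2 to 5 members with higher and 0 to 1 with lower values at an unadjusted p under 0.05. Of all genes, 4.53% to 7.28% were then higher and 1.95% to 5.85% lower at that p. Groups did not overlap for 6 to 11 members higher and 1 to 4 lower, where 11.5% to 15.1% of genes were higher and 9.82% to 16.1% lower. A group of 2 overlaps less often by construction. The replicate block and DESeq2 each kept the 6 higher members at that p and changed no member's call. The count of members by same-numbered pair was also added after seeing the data.

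Of the 35 members, 19 kept their direction in all 14 fits and 16 changed it, each only with 1 sample left out. The log2 fold changes then lay between -0.0512 and 0.147 for Fermt1, -0.231 and 0.0145 for Fermt2, -0.049 and 0.235 for Fermt3, -0.171 and 0.0908 for Ilk, -0.326 and 0.49 for Itga1, -0.683 and 0.00635 for Itga10, -1 and 0.0888 for Itga2b, -0.0185 and 0.17 for Itga4, -0.0377 and 0.592 for Itga9, -0.164 and 0.252 for Itgae, -0.115 and 0.0982 for Itgax, -0.118 and 0.43 for Itgb6, -0.0246 and 0.267 for Parva, -0.00441 and 0.119 for Ptk2, -0.255 and 0.155 for Tln1 and -0.0292 and 0.482 for Zyx. None of these passed the test in any fit, and the cause was not tested. The counts limit Itgad and Itga11, which were too low to test over all 6 samples.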
